A study of Mus musculus with 9 samples.

Results

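Genes of the oligodendrocyte lineage were followed in RNA-seq of embryonic mouse forebrain with intact or heterozygous *Npas3*. The genes were chosen by symbol, with earlier results of these data known, and they run from specification of the lineage to myelin. They comprise the transcription factors *Olig1*, *Olig2*, *Nkx2-2* and *Sox10*, the surface proteins of precursors *Pdgfra* and *Cspg4*, the genes of committed and early differentiating cells *Gpr17* and *Bcas1*, and the myelin gene *Mbp*. All 9 were present among the 55401 genes of the deposited table, and all 9 were among the 17818 genes that passed the filter on low counts and were tested.

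Forebrain came from female embryos at E16 to E17. The 5 WT embryos were *Npas3+/+* and the 4 HET embryos were *Npas3+/-*, with the deletion constitutive and therefore carried by every cell type. The line was kept on the C57BL/6J background, HET parents were mated with HET or C57BL/6J animals, and the WT embryos were littermates of HET embryos. The tissue was whole forebrain, whereas the labels name astrocytes as the cell type. Summed CPM (counts scaled to the size of each library by the TMM method) of 7 neuronal markers ranged from 5232 to 6345 over the embryos, and that of 11 radial glia and astrocyte markers from 2153 to 3074. The astrocyte water channel gene *Aqp4* was at 0.163 to 2.02 CPM.

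Oligodendrocytes wrap axons of the central nervous system in myelin. In the ventral forebrain the secreted protein Sonic hedgehog induces OLIG1 and OLIG2 in progenitors of the ganglionic eminences, and SOX10 then commits cells to the lineage. Committed precursors carry the PDGF receptor PDGFRA and the proteoglycan NG2, divide and migrate, and later pass through a GPR17- and BCAS1-positive state before they make myelin proteins such as MBP. Before birth the forebrain holds many precursors and few myelinating cells. In bulk tissue, fewer cells of a type and less RNA per cell cannot be told apart.

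The total count per embryo was 42640218 to 62830060. The targeted gene *Npas3* averaged 36.2 ± 4.18 CPM in the WT group (SD, n = 5) and 29.5 ± 3.09 CPM in the HET group (SD, n = 4), and its log2 fold change of −0.30 did not pass the adjusted threshold (adjusted p = 0.877 from edgeR). RNA of the choroid plexus was uneven. Its marker *Ttr* was at 2127 to 2631 CPM in WT 15, WT 16 and WT 41, at 467 CPM in HET 24 and at 0.770 to 11.7 CPM in the other 5 embryos. WT 16 had the lowest value of all embryos for 5 of the 9 lineage genes and HET 7 the highest for 5. The labels number the embryos separately but do not say which shared a litter, so p-values measure the spread between these embryos.

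Promoters of *Olig2* and *Pdgfra* are shown because these genes differed in how they varied between embryos, as described below. The sequences are from RefSeq on GRCm38.p6, on the plus strand, in lower case with E-boxes in capitals. An E-box is the motif CANNTG, which is bound by basic helix-loop-helix proteins, the class to which NPAS3, OLIG1 and OLIG2 belong, and which reads the same on both strands. The *Olig2* stretch is chr16:91225300-91225456 and ends at the last base before the first annotated exon. The *Pdgfra* stretch is chr5:75152001-75152250.
Olig2: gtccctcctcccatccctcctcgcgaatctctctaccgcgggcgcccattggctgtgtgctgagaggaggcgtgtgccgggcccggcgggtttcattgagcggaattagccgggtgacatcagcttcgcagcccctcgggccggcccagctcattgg
Pdgfra: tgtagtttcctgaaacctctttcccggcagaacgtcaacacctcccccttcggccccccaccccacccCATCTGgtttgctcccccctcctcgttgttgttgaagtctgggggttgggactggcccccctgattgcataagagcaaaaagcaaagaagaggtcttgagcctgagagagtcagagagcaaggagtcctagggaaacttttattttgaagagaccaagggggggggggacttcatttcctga
The motif was counted in windows of 250 bases that end at a RefSeq start. That start need not be the start of the GENCODE gene, so that the windows of *Olig2* and *Cspg4* run past the gene's start, that of *Pdgfra* ends before it and that of *Nkx2-2* lies inside the gene. Only these 4 lineage genes had a window that was read, and *Olig1*, *Sox10*, *Gpr17*, *Bcas1* and *Mbp* had none. In these windows the letters occurred 0 times for *Olig2* and *Cspg4*, 1 time for *Pdgfra* and 3 times for *Nkx2-2*. Over 32841 such windows of 27018 genes, 66.2% held at least 1 E-box, with a median of 1. The letters are a description of these windows and say nothing of binding.

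None of the 9 lineage genes passed an adjusted p of 0.05 between HET and WT forebrain (quasi-likelihood test of edgeR, Benjamini-Hochberg over all tested genes). Over all tested genes 25, or 0.140%, passed that threshold, 5 higher and 20 lower in HET. Without adjustment, edgeR gave 2 of the 9 a p under 0.05, *Olig1* and *Sox10*, both higher in HET, where 2.32% of all tested genes were higher and 3.09% lower at that level. In 0 of the 9 did the HET embryos lie all above or all below the WT embryos, as they did upward for 0.786% and downward for 1.07% of all tested genes. HET over WT, the log2 fold change was above 0 for 6 of the 9, against 48.5% of all tested genes, and its median was 0.14 over the 9 and −0.005 over all tested genes. DESeq2 and limma-voom also gave 0 of the 9 an adjusted p under 0.05.

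**Figure D1:**
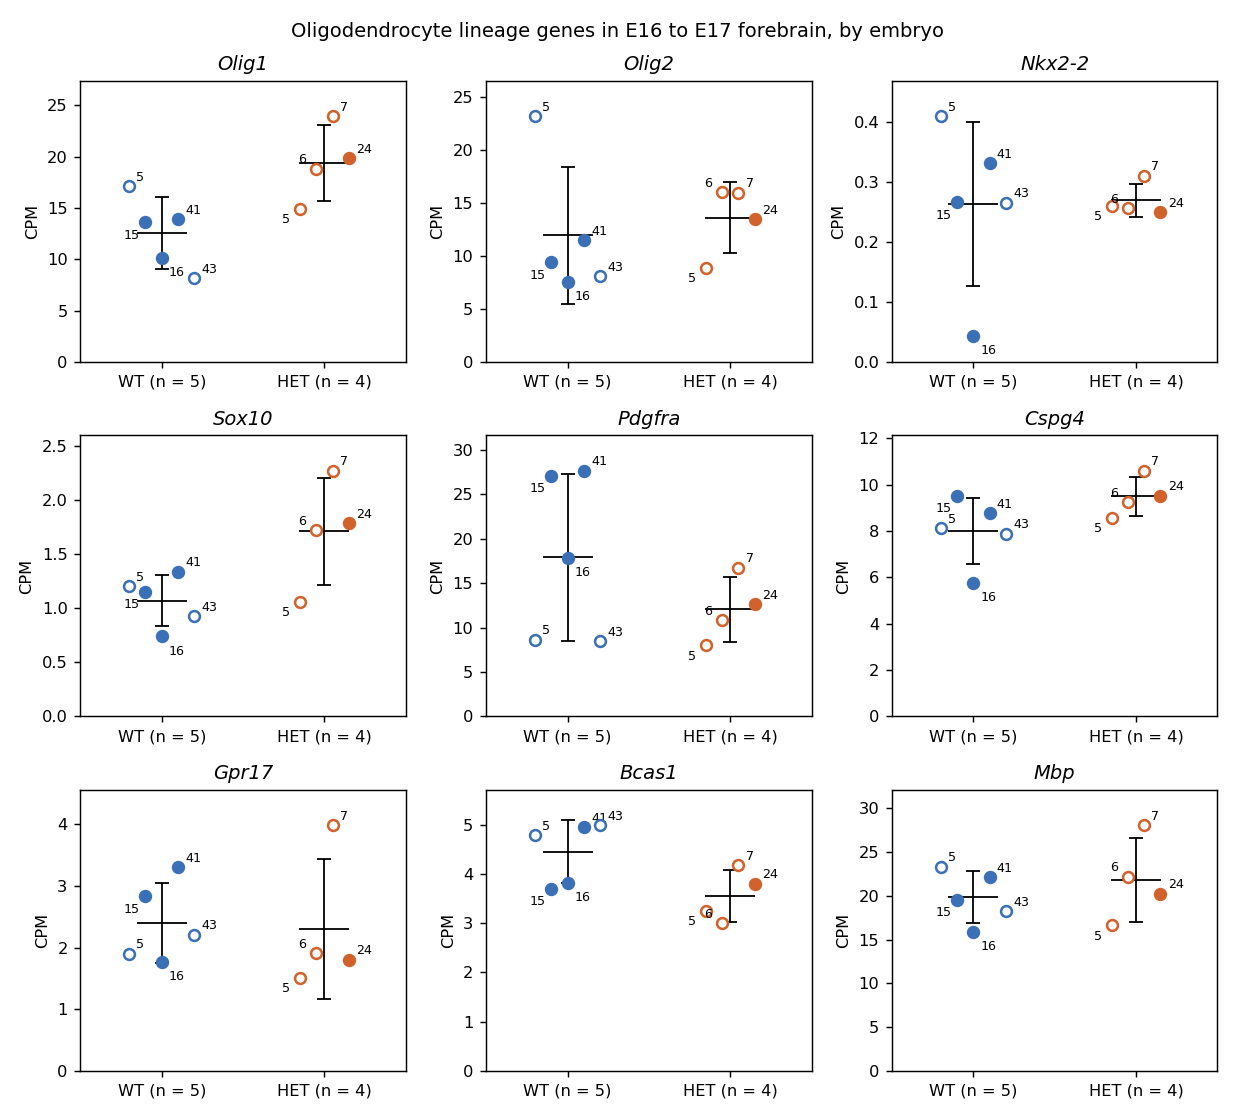
CPM of each lineage gene in every embryo (vertical axis, from 0), with WT in blue and HET in orange, the embryo number beside each point, filled points for embryos with *Ttr* over 100 CPM, and bars for mean ± SD. HET 7 is the highest embryo for 5 genes and WT 16 the lowest for 5, and WT and HET points overlap in every panel.

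Levels of different genes were compared as CPM per kilobase of exon, over the union of annotated exons. *Olig1* had the highest mean over the 9 embryos on this scale, at 7.22 CPM per kb, followed by *Olig2* at 5.01, *Mbp* at 2.44, *Pdgfra* at 1.53 and *Bcas1* at 1.07. *Cspg4* was at 0.726, *Gpr17* at 0.454, *Sox10* at 0.444 and *Nkx2-2* at 0.0923 CPM per kb. The OLIG factors and *Mbp* were thus the highest per exon length and *Nkx2-2* the lowest. Among WT embryos, the ranges of neighbours in this order overlapped except between *Olig2* and *Mbp*, between *Bcas1* and *Cspg4*, and between *Sox10* and *Nkx2-2*.

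**Figure D2:**
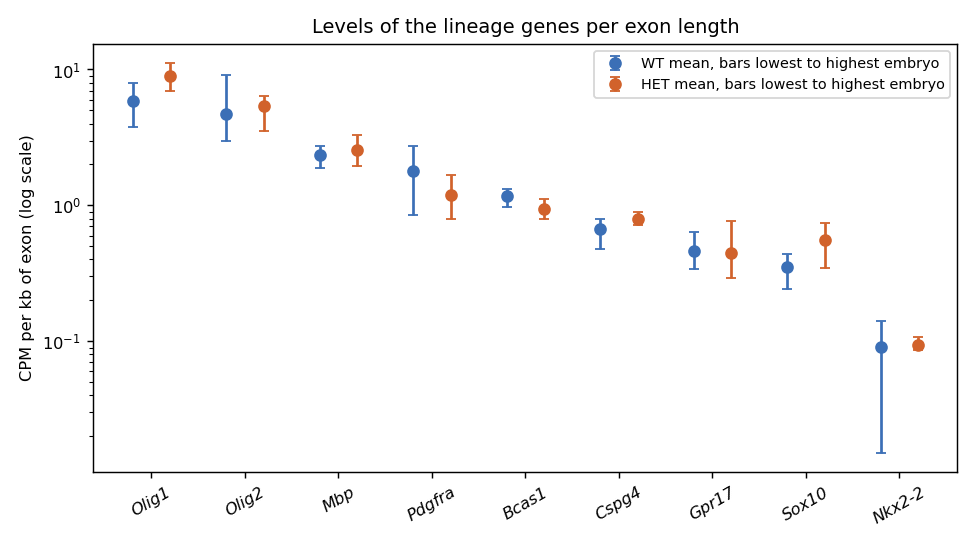
Mean CPM per kilobase of exon (vertical log axis) of the lineage genes in WT (blue) and HET (orange), with bars from the lowest to the highest embryo. The mean over all embryos runs from 7.22 for *Olig1* to 0.0923 for *Nkx2-2*, and the WT and HET bars of each gene overlap.

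*Olig1*, a basic helix-loop-helix factor needed for maturation of the lineage, was higher in most HET embryos than in any WT embryo. It lies on chromosome 16 from 91269772 to 91271933 on the plus strand (GRCm38, ENSMUSG00000046160). In WT embryos 5, 15, 16, 41 and 43 it was at 17.1, 13.6, 10.1, 13.9 and 8.15 CPM. In HET embryos 5, 6, 7 and 24 it was at 14.9, 18.8, 23.95 and 19.9 CPM. All HET embryos but HET 5 were above all WT embryos, and WT 5 was above HET 5. On the log2 scale HET exceeded WT by 0.63 with a standard error of 0.20 and a 95% interval of 0.18 to 1.07, a fold of 1.54. The edgeR p was 0.0107 before and 0.814 after adjustment. Leaving out each embryo in turn gave 0.51 to 0.76, and the embryos with low *Ttr* alone gave 0.61 with an unadjusted edgeR p of 0.105.

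*Olig2* lies upstream on the same chromosome, from 91225457 to 91228677 on the plus strand (ENSMUSG00000039830), with 41094 bases between its end and the start of *Olig1*. OLIG2 is required to specify the lineage. *Olig2* CPM in WT 5, 15, 16, 41 and 43 was 23.2, 9.38, 7.57, 11.5 and 8.10. In HET 5, 6, 7 and 24 it was 8.90, 16.0, 15.9 and 13.5. WT 5 alone was above every HET embryo, whereas the other WT embryos were below all HET embryos but HET 5. Its log2 fold change of 0.19 had a standard error of 0.32 and a 95% interval of −0.51 to 0.89 (edgeR, adjusted p = 0.940). This became 0.57 without WT 5 (unadjusted p = 0.0159, adjusted p = 0.370, both from edgeR) and −0.20 between the low-Ttr embryos (*Ttr* under 100 CPM, 2 WT and 3 HET), which include WT 5.

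WT 5 had the highest summed level of ventral forebrain genes. The summed CPM of 11 genes of ganglionic eminence progenitors and interneurons was 542, 386, 238, 468 and 260 in WT 5, 15, 16, 41 and 43. It was 196, 370, 502 and 371 in HET 5, 6, 7 and 24. WT 16, WT 43 and HET 5, the embryos with the lowest sums, also had the lowest *Olig2* values. Of these 11 markers, all were tested and 0 had an unadjusted p under 0.05 in edgeR's test. Among the 11, the ventral factor *Nkx2-1* was at 24.5 CPM and the homeobox factor *Dlx2* at 60.8 CPM in WT 5, each the highest of the 9 embryos. Both were picked after their values were seen, and the other markers are not given one by one. The Notch target *Hes5*, which is not among the 11 and was also picked in this way, was highest in WT 5, at 46.6 CPM. The part of dissection in the *Olig1* and *Olig2* values was not tested.

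The CPM ratio of *Olig1* to *Olig2*, chosen after the values were seen, was 0.739 in WT 5 and 1.01 to 1.45 in the other WT embryos. In HET embryos it was 1.18 to 1.68. Only WT 5 had less *Olig1* than *Olig2*. The log2 ratio averaged 0.16 ± 0.39 in the WT group (SD, n = 5) and 0.53 ± 0.22 in the HET group (SD, n = 4), with overlapping ranges, and no test was made of it.

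**Figure D3:**
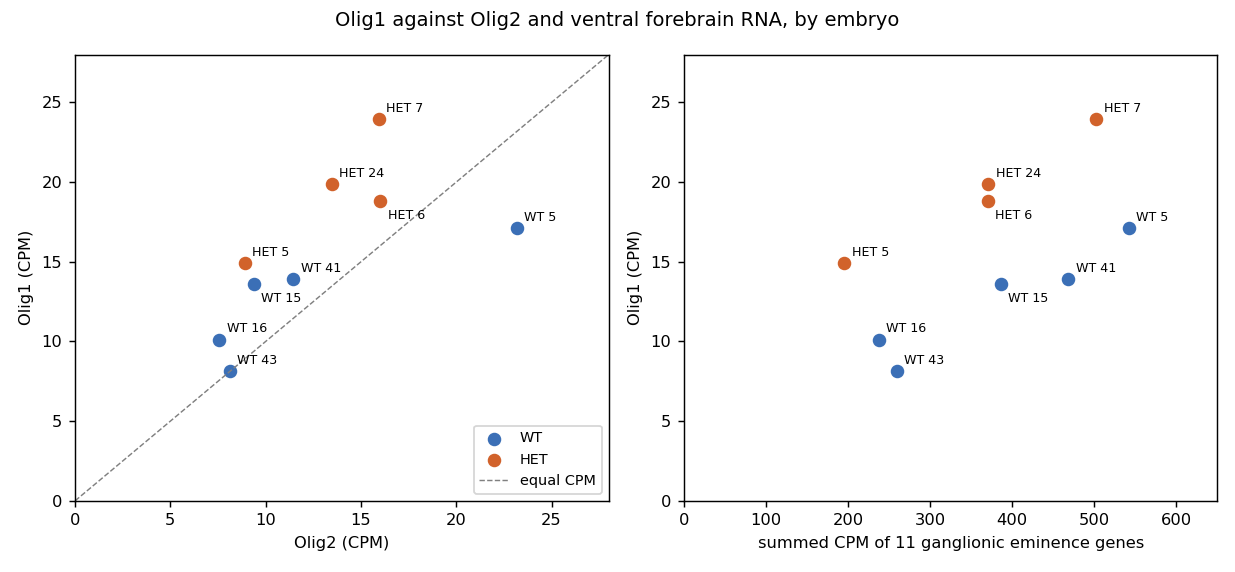
*Olig1* CPM (vertical) against *Olig2* CPM (left, dashed line at equal CPM) and against the summed CPM of 11 ganglionic eminence genes (right), each point an embryo, with WT in blue and HET in orange. WT 5 is the only point to the right of the dashed line, and HET 7 has the highest *Olig1* value, at 23.95 CPM.

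*Nkx2-2*, a homeodomain factor that acts in the ventral neural tube and again when precursors differentiate, was barely detected. It is at 147177546 to 147194243 of chromosome 2, minus strand (ENSMUSG00000027434) and had 2 to 21 counts per embryo. Its CPM in WT 5, 15, 16, 41 and 43 was 0.409, 0.265, 0.0435, 0.331 and 0.265. In HET 5, 6, 7 and 24 it was 0.260, 0.256, 0.310 and 0.250. The 2 counts of WT 16 were under the 3 counts taken as the lower limit of detection, a limit that covers counting error only. HET over WT gave a log2 fold change of 0.03 with a 95% interval of −0.89 to 0.95 (edgeR, adjusted p = 0.994), so that folds from 0.541 to 1.93 lay within the interval and a smaller change was not detectable at this depth. Its sign turned with a score of choroid plexus RNA (the mean log2 CPM of 10 markers) as a term of the fit, between the embryos with low *Ttr*, and without WT 16 or HET 7.

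*Sox10*, an HMG-box factor that drives commitment and later the myelin genes, lies at 79154908 to 79165240 of chromosome 15, minus strand (ENSMUSG00000033006). In WT 5, 15, 16, 41 and 43 it was at 1.20, 1.15, 0.739, 1.34 and 0.927 CPM. In HET 5, 6, 7 and 24 it was at 1.06, 1.72, 2.27 and 1.79 CPM. As with *Olig1*, HET 6, HET 7 and HET 24 were above every WT embryo and HET 5 lay within the WT range. The log2 difference of HET from WT was 0.67 with a standard error of 0.24 and a 95% interval of 0.15 to 1.20, a fold of 1.59. The edgeR p was 0.0169 before and 0.896 after adjustment, and the unadjusted p without HET 7 was 0.0616 at a log2 fold change of 0.51. Between the low-Ttr embryos the log2 fold change was 0.67 with an unadjusted edgeR p of 0.0989.

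*Pdgfra*, the receptor through which PDGF-A drives division of precursors, had the lowest log2 fold change of the lineage genes. It lies at 75152292 to 75198215 of chromosome 5, plus strand (ENSMUSG00000029231). In WT 5, 15, 16, 41 and 43 it was at 8.64, 27.0, 17.8, 27.6 and 8.48 CPM. In HET 5, 6, 7 and 24 it was at 7.99, 10.8, 16.7 and 12.6 CPM. The WT values fell into a high set, WT 15, WT 16 and WT 41, and a low set, WT 5 and WT 43, with the HET embryos between 7.99 CPM and the bottom of the high set. Over all embryos the log2 fold change of −0.58 had a standard error of 0.37 and a 95% interval of −1.40 to 0.25, and its edgeR p was 0.153 before and 0.911 after adjustment.

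The 3 WT embryos with high *Pdgfra* were the WT embryos with high *Ttr*. The summed CPM of 10 choroid plexus markers was 39.8 in WT 5, 2812 in WT 15, 2336 in WT 16, 2890 in WT 41 and 18.5 in WT 43. It was 28.04 to 43.1 in HET 5, 6 and 7 and 531 in HET 24. The summed CPM of 10 meningeal fibroblast markers was 79.4, 62.1 and 65.2 in WT 15, WT 16 and WT 41, 16.9 and 22.1 in WT 43 and WT 5, and 25.01 to 35.7 in HET. Of these 10 fibroblast markers, which belong to cells that also express *Pdgfra*, 0 were at 0 reads in all embryos, 1 was higher and 1 lower in HET at an unadjusted p under 0.05, and 9 had a log2 fold change below 0. The exception, the retinoic acid synthesis gene *Aldh1a2*, was at 1.87 (edgeR, unadjusted p = 0.00175, adjusted p = 0.394). Over all tested genes 2.32% were higher and 3.09% lower at that unadjusted level, and 48.5% had a log2 fold change above 0. When the score of choroid plexus RNA entered the fit, the log2 fold change of *Pdgfra* became 0.09 (edgeR, adjusted p = 0.964). Between the low-Ttr embryos, 2 WT and 3 HET, the value was 0.47 (edgeR, unadjusted p = 0.152, adjusted p = 0.999). Since HET 24 is the only HET embryo with high *Ttr*, genotypes were not compared within the high-Ttr embryos. The part of meningeal or choroid plexus RNA in the *Pdgfra* values was not tested.

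**Figure D4:**
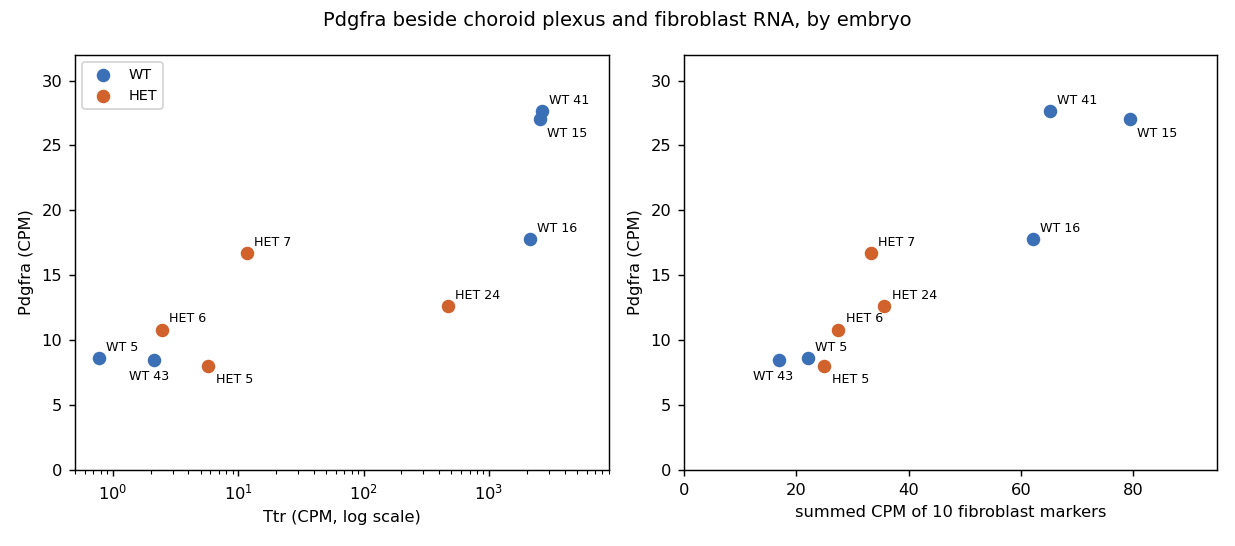
*Pdgfra* CPM (vertical) against *Ttr* CPM (left, log axis) and against the summed CPM of 10 meningeal fibroblast markers (right), each point an embryo, with WT in blue and HET in orange. WT 15, WT 16 and WT 41, with *Ttr* at 2127 to 2631 CPM and fibroblast sums of 62.1 to 79.4 CPM, hold the 3 highest *Pdgfra* values.

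*Cspg4* encodes NG2, the proteoglycan that marks precursors and also pericytes. It lies at 56865033 to 56899870 of chromosome 9, plus strand (ENSMUSG00000032911). It was at 8.11, 9.51, 5.74, 8.76 and 7.88 CPM in WT 5, 15, 16, 41 and 43. It was at 8.57, 9.25, 10.6 and 9.52 CPM in HET 5, 6, 7 and 24. The HET values were narrowly spread and WT 16 lay below all other embryos. Its log2 fold change of 0.25 had a standard error of 0.14 and a 95% interval of −0.06 to 0.56 (edgeR, adjusted p = 0.911), and it was 0.15 without WT 16. The high set of *Pdgfra* was not a high set of *Cspg4*, as WT 16 was the third highest embryo for *Pdgfra* and the lowest for *Cspg4*. Summed CPM of 9 pericyte and mural cell markers was 134 to 170 in WT and 140 to 147 in HET, and 0 of the 9 had an unadjusted p under 0.05 in edgeR's test.

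*Gpr17*, a G protein-coupled receptor that marks committed precursors and delays their maturation, lies at 31942997 to 31949636 of chromosome 18, minus strand (ENSMUSG00000052229). It was at 1.90, 2.83, 1.76, 3.31 and 2.21 CPM in WT 5, 15, 16, 41 and 43. It was at 1.52, 1.91, 3.99 and 1.80 CPM in HET 5, 6, 7 and 24. HET 7 was above all other embryos, and the other HET embryos lay below the WT median of 2.21 CPM. Between the genotypes the log2 fold change was −0.06, with a standard error of 0.30 and a 95% interval of −0.72 to 0.59 (edgeR, adjusted p = 0.977). In 5 of the 9 fits without a given embryo the sign turned, and the value was −0.46 without HET 7. Between the embryos with low *Ttr* it was 0.27.

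*Bcas1*, which marks early myelin-forming cells, lies at 170346991 to 170427845 of chromosome 2, minus strand (ENSMUSG00000013523). It was at 4.79, 3.69, 3.81, 4.95 and 4.99 CPM in WT 5, 15, 16, 41 and 43. It was at 3.25, 3.004, 4.17 and 3.80 CPM in HET 5, 6, 7 and 24. WT 5, WT 41 and WT 43 were above every HET embryo, and WT 15 and WT 16 lay within the HET range. HET was lower by a log2 fold change of −0.32, with a standard error of 0.15 and a 95% interval of −0.65 to 0.01. The edgeR p was 0.0551 before and 0.911 after adjustment. Exons of antisense genes cover 12.6% of the exonic bases of *Bcas1*, and these genes had 0 to 8 counts per embryo. The corresponding overlap was 9.67% for *Nkx2-2*, 7.26% for *Olig1*, 6.21% for *Pdgfra* and 3.62% for *Gpr17*.

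*Mbp*, a main protein of compact myelin, lies at 82475146 to 82585637 of chromosome 18, plus strand (ENSMUSG00000041607). The locus also makes Golli transcripts, which are expressed outside myelin and cannot be separated from *Mbp* in counts per gene. It was at 23.3, 19.6, 15.9, 22.1 and 18.2 CPM in WT 5, 15, 16, 41 and 43. It was at 16.6, 22.2, 28.1 and 20.2 CPM in HET 5, 6, 7 and 24. HET 7 was the highest embryo, and the other HET embryos lay within the WT range. A log2 fold change of 0.14 was fitted, with a standard error of 0.15 and a 95% interval of −0.20 to 0.47 (edgeR, adjusted p = 0.927). Without HET 7 it was −0.01.

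**Figure D5:**
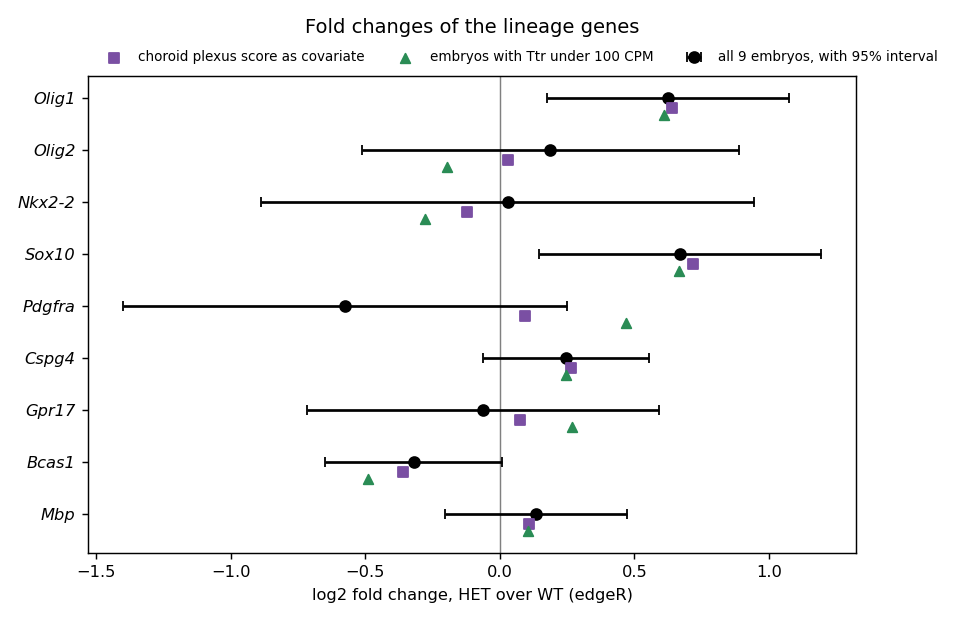
Log2 fold change of HET over WT (horizontal) for each lineage gene, from the edgeR fit of all 9 embryos with its 95% interval (black), with the choroid plexus score in the fit (purple squares) and in the embryos with *Ttr* under 100 CPM (green triangles). *Pdgfra* moves from −0.58 to 0.09 and 0.47 and *Olig2* from 0.19 to 0.03 and −0.20, and *Gpr17* and *Nkx2-2* also change sign. *Olig1* is at 0.61 to 0.64 and *Sox10* at 0.67 to 0.72. In the embryos with *Ttr* under 100 CPM their unadjusted edgeR p was 0.105 and 0.0989.

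Whether the lineage genes varied together over the 9 embryos was examined for all 36 pairs on log2 CPM. Pearson's r was above 0 for 31 pairs, and 9 pairs had an unadjusted p under 0.05 in exact two-sided permutation tests. After Benjamini-Hochberg adjustment over the 36, 2 pairs remained by r. For *Olig1* and *Sox10*, r was 0.889 (exact permutation p = 0.00142, adjusted p = 0.0289) and Spearman's rho 0.90 (exact permutation p = 0.00203, adjusted p = 0.0365). For *Sox10* and *Cspg4*, r was 0.854 (exact permutation p = 0.00160, adjusted p = 0.0289) and rho 0.867 (exact permutation p = 0.00451, adjusted p = 0.0541). Without the 2 embryos farthest from the median of the x-axis gene, r was 0.910 for *Olig1* and *Sox10* (WT 43 and HET 7 left out, exact permutation p = 0.00655, adjusted p = 0.118) and 0.706 for *Sox10* and *Cspg4* (WT 16 and HET 7 left out, exact permutation p = 0.0849, adjusted p = 0.367). Neither pair passed the adjusted threshold without those embryos.

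By rank, *Olig2* and *Mbp* also passed, with rho 0.917 (exact permutation p = 0.00131, adjusted p = 0.0365) and r 0.804 (exact permutation p = 0.00907, adjusted p = 0.0816). Their r without WT 5 and WT 16 was 0.816. The neighbouring genes *Olig1* and *Olig2* had r 0.757 (exact permutation p = 0.0177, adjusted p = 0.128) and rho 0.783 (exact permutation p = 0.0172, adjusted p = 0.103), and r 0.742 without WT 43 and HET 7. *Pdgfra* had r −0.20 against *Olig2* (exact permutation p = 0.592, adjusted p = 0.820) and 0.02 against *Olig1* (exact permutation p = 0.958, adjusted p = 0.958). This was not particular to *Pdgfra*. For *Bcas1*, r was 0.09 against *Olig2* and −0.32 against *Olig1*, and for *Gpr17* it was 0.14 and 0.23. With each genotype centred on its mean and permuted within it, 13 pairs had an exact p under 0.05 before adjustment and 0 after it. Neither the 4 embryos with high *Ttr* nor the 5 with low *Ttr* are enough for a correlation within them.

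Other genes of the lineage and of the signals around it were read from lists of 71 genes, of which 64 were tested. By edgeR, 0 of the 64 passed an adjusted p of 0.05, 3 were higher and 7 lower in HET at an unadjusted p under 0.05, 35 had a log2 fold change above 0, and the median was 0.05. Shares of all tested genes at that unadjusted level were 2.32% higher and 3.09% lower. HET and WT embryos did not overlap for 1 gene higher and 3 genes lower in HET, against 0.786% and 1.07% of all tested genes. DESeq2 gave 1 of the listed genes, *Bmpr1b*, an adjusted p under 0.05.

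Of 16 other precursor genes 14 were tested, 2 were higher and 2 lower at an unadjusted p under 0.05, against 2.32% and 3.09% of all tested genes. *C1ql1*, a secreted C1q-like protein, had a log2 fold change of 0.47 and *Cacng4*, an AMPA receptor auxiliary subunit, of 0.23. *Sox8*, the close relative of *Sox10*, was at 19.0 to 27.9 CPM in WT and 13.6 to 18.3 CPM in HET embryos, with every HET embryo below every WT embryo. Its log2 fold change of −0.48 (edgeR, standard error 0.12, adjusted p = 0.455) had the opposite sign to that of *Sox10*. The abundant proteoglycan genes *Ptprz1* and *Vcan*, at 584 ± 61.3 and 323 ± 67.3 CPM in WT (SD, n = 5), had log2 fold changes of −0.08 and 0.24. *Neu4* had 0 reads in every embryo. Radial glia and astrocytes also express *Sox8*, and the summed CPM of their 11 markers was 2554 to 3074 in WT and 2153 to 2671 in HET. Of the 11, 3 were lower and 0 higher at an unadjusted p under 0.05 in edgeR's test, against 3.09% and 2.32% of all tested genes. Groups did not overlap for 2 of the 11, both lower in HET, against 1.07% of all tested genes. Adjustment was passed by 1 of the 11, against 0.140% of all tested genes. This was the lipid-binding protein gene *Fabp7* of radial glia, at a log2 fold change of −0.86 (edgeR, adjusted p = 0.0223). The part of radial glia and astrocytes in the *Sox8* values was not tested.

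Of the genes of later steps, none passed the adjusted threshold in edgeR's test. Of 12 other committed and premyelinating genes 10 were tested. At an unadjusted p under 0.05 by edgeR, 1 was lower and 0 higher in HET, against 3.09% and 2.32% of all tested genes. This was *Bmp4*, with a log2 fold change of −1.08 (edgeR, adjusted p = 0.896). *Bmp4* was at 3.10, 2.59 and 2.32 CPM in WT 15, WT 16 and WT 41, the WT embryos with high *Ttr*. In WT 5 and WT 43 it was at 0.866 and 1.19 CPM, within the HET range of 0.599 to 1.32 CPM. The part of choroid plexus or meningeal RNA in the *Bmp4* values was not tested. *Nfasc* and *Fyn*, the most abundant of this list and both also neuronal, had log2 fold changes of 0.21 and 0.04. Of 14 other myelin genes 11 were tested, with *Cnp* at 0.05 and *Trf*, which shares 63.5% of its exonic bases with another gene on its strand, at −0.18. Of the 11, 1, *Ermn*, was lower and 0 were higher in HET at an unadjusted p under 0.05 by edgeR. *Ermn*, a cytoskeletal protein of late oligodendrocytes, was at 1.08 to 1.56 CPM in WT and 0.518 to 0.930 CPM in HET embryos. Its groups did not overlap, on 27 to 99 counts per embryo, as was so downward for 1.07% of all tested genes. Its log2 fold change was −0.88 (edgeR, standard error 0.20, adjusted p = 0.298). Its direction was opposite to that of *Mbp*.

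Signals were read by ligand and receptor. All 5 genes of the PDGF list had a log2 fold change below 0, with *Pdgfb* at −0.00654. Of all tested genes, 48.5% were above 0. Unadjusted p was under 0.05 in edgeR's test for 2 of the 5, both lower in HET, as were 3.09% of all tested genes. These were the ligands *Pdgfc* at −0.40 and *Pdgfd* at −0.87. *Pdgfd* was at 2.079, 1.501 and 2.537 CPM in WT 15, WT 16 and WT 41, the WT embryos with high *Ttr*. In WT 5 and WT 43 it was at 0.914 and 0.972 CPM, within the HET range of 0.693 to 1.178 CPM. *Pdgfc* did not follow this split, with WT 5 at 12.72 CPM and WT 15 at 12.19 CPM. The part of choroid plexus or meningeal RNA in the *Pdgfd* values was not tested. *Pdgfa*, the ligand of PDGFRA on precursors, averaged 11.2 ± 2.95 CPM in the WT group (SD, n = 5) and 10.6 ± 1.75 CPM in the HET group (SD, n = 4), a log2 fold change of −0.07, and *Pdgfrb*, the receptor of mural cells, was at −0.15. With the choroid plexus score in the fit, the value of *Pdgfa* turned to 0.22. Antisense exons overlap 26.1% of the exonic bases of *Pdgfa*.

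Of the 13 Sonic hedgehog pathway genes, all were tested and 12 had a log2 fold change above 0, against 48.5% of all tested genes, with a median of 0.14. Their summed CPM overlapped between the groups, at 559 to 962 in WT and 659 to 945 in HET, with WT 5 the highest embryo. In the embryos with high *Ttr*, WT 15, WT 16, WT 41 and HET 24, the sum was 559, 564, 655 and 675. In WT 5, WT 43, HET 5, HET 6 and HET 7, with low *Ttr*, it was 962, 770, 945, 838 and 659. The part of choroid plexus RNA in the values of these pathway genes was not tested. *Gli1*, a transcriptional readout of the pathway, was at 9.40 to 14.0 CPM in WT and 14.2 to 17.1 CPM in HET embryos. Every HET embryo was above every WT embryo, at a log2 fold change of 0.34 (edgeR, standard error 0.12, unadjusted p = 0.0139, adjusted p = 0.890). *Cdon* and *Gli3*, the most abundant of the list, were at 0.18 and 0.07, and both turned below 0 with the choroid plexus score in the fit. *Shh* itself was at 0.420 to 3.05 CPM with a log2 fold change of 0.03.

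A further list held 11 inhibitors and other regulators of oligodendrocyte differentiation, roles not examined here, and all 11 were tested between the genotypes. Of the 11, 1, *Bmpr1b*, had an unadjusted p under 0.05 in edgeR's test, lower in HET as were 3.09% of all tested genes. BMPR1B is a receptor for BMPs, which hold precursors back and favour astrocytes. It was at 12.6, 5.82, 5.85, 6.70 and 6.76 CPM in WT 5, 15, 16, 41 and 43 and at 3.77 to 4.48 CPM in HET embryos, all below the WT embryos. A log2 fold change of −0.89 was fitted (edgeR, standard error 0.23), and its adjusted p was 0.489 by edgeR and 0.0221 by DESeq2. The abundant helix-loop-helix genes *Tcf4* and *Id2* had log2 fold changes of 0.01 and −0.16.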

How the data were processed

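The authors captured poly(A) RNA, made TruSeq libraries, used one read of each pair, aligned it with STAR (2.7.9a in the submitters' processing notes) to GRCm38 and counted per gene with featureCounts. The values deposited by the authors are raw read counts of each gene, without any normalization. The strand setting is not given in the sources used here. All columns were matched to an embryo by label, with 0 left over.

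The lineage genes and all other lists were chosen with earlier results of these data known. Counts were filtered with filterByExpr (minimum count 10), scaled by TMM and compared, HET against WT without covariates, with edgeR 4.0.16 (R 4.3.3). P-values were adjusted by Benjamini-Hochberg over all 17818 genes at a threshold of 0.05. The fit gave a common biological coefficient of variation of 16.8%. Correlations used log2 CPM (prior count 2) and exact permutation in Python 3.11.15.

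Apart from the lineage genes, *Npas3* and *Ttr*, the genes named with values from the other lists of the lineage and its signals were the 2 with the highest mean CPM in each and those with an adjusted p under 0.05 or groups that did not overlap. Some results are not reported here. *C1ql1*, *Cacng4*, *Bmp4*, *Pdgfb*, *Pdgfc*, *Pdgfd*, *Neu4*, *Shh*, *Aqp4*, *Fabp7*, *Aldh1a2*, *Nkx2-1*, *Dlx2* and *Hes5* were named after their values were seen. The choroid plexus score was the mean log2 CPM of 10 markers. Alternatives were DESeq2 1.42.0, limma-voom (limma 3.58.1), other scalings and filters, that score as a covariate, the embryos with *Ttr* under 100 CPM, and leaving out each embryo. Coordinates are from GENCODE M21, which lists 55141 of the 55401 identifiers.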

Additional observations from a re-analysis of the deposited data

Results flagged for a closer look

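In groups of 4 or 5 embryos, the highest or lowest embryo was examined for a gap to its neighbour above Dixon's 95% critical value. Of 76 groups examined 8 were flagged, where chance alone flags about 1 in 20, or 3.8.

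Among the lineage genes, *Olig2* in WT 5 was at 23.2 CPM against 7.57 to 11.5 CPM in the other WT embryos. *Gpr17* in HET 7 was at 3.99 CPM against 1.52 to 1.91 CPM in the other HET embryos. *Nkx2-2* in HET 7 was at 0.310 CPM against 0.250 to 0.260 CPM, on 15 counts against 11 to 13.

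Among the other genes, *Bmpr1b* in WT 5 was at 12.6 CPM against 5.82 to 6.76 CPM, and *Nfasc* in WT 16 was at 194 CPM against 291 to 321 CPM in the other WT embryos. *Sox8* in HET 24 was at 13.6 CPM against 17.5 to 18.3 CPM in the other HET embryos. *Npas3* in HET 7 was at 34.1 CPM against 27.8 to 28.2 CPM, and the summed CPM of choroid plexus markers in HET 24 was 531 against 28.04 to 43.1.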

How the results depend on the processing

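Over 152 values of the 9 lineage genes under the alternatives, 0 had an adjusted p under 0.05. *Olig1* kept its sign at 0.51 to 0.76 and *Sox10* at 0.51 to 0.84, with an unadjusted p under 0.05 in 16 and 15 of 17 values. With the choroid plexus score in the fit, log2 fold changes turned to 0.0753 for *Gpr17*, −0.12 for *Nkx2-2*, 0.0918 for *Pdgfra*, −0.0748 for *Cdon*, −0.15 for *Gli3*, 0.22 for *Pdgfa* and −0.0484 for *Tcf4*. In the embryos with low *Ttr* it turned to 0.27 for *Gpr17*, −0.28 for *Nkx2-2*, −0.20 for *Olig2*, 0.47 for *Pdgfra*, −0.12 for *Cdon*, −0.24 for *Gli3*, 0.10 for *Id2*, −0.00492 for *Nfasc*, 0.32 for *Pdgfa* and −0.0117 for *Tcf4*. The cause was not tested. Leaving out each embryo gave −0.46 to 0.0919 for *Gpr17*, −0.00749 to 0.24 for *Mbp*, −0.23 to 0.22 for *Nkx2-2*, −0.0856 to 0.23 for *Gli3*, −0.18 to 0.0406 for *Pdgfa* and −0.0678 to 0.0549 for *Tcf4*. The number of genes called, 25 in edgeR, was 14 to 23 when an embryo was left out, with 16 without HET 5, 14 without HET 6 and 16 without HET 7. It was 85 with DESeq2 (21 higher, 64 lower) and 15 in the embryos with low *Ttr*, where fewer embryos were compared. DESeq2 also gave *Bmpr1b* an adjusted p of 0.0221, against 0.0836 to 0.988 under the other alternatives. The 2 correlated pairs that passed adjustment by r became 0 without the 2 embryos farthest from the median and 0 when centred on each genotype. The log2 ratio of *Olig1* to *Olig2*, an alternative added after the data were seen, was 0.37 higher in HET and 0.74 higher in the embryos with low *Ttr*. *Nkx2-2* gave no value at a minimum count of 50, which it did not pass. No paired analysis was possible because the labels do not say which embryos shared a litter. Depth limits *Nkx2-2*, at 2 to 21 counts.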

Other observations

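*Olig2*, *Pdgfra* and *Mbp* were set against the 11566 genes with a mean of at least 5 CPM by Pearson's r of log2 CPM over the 9 embryos, as a description with no test, since all genes share the same libraries. Among the 5 genes most like *Olig2* were *Zic2* with r 0.963, *Rem2* with 0.963, *Zic1* with 0.954 and *Tmtc2* with 0.952, and 35 genes had r over 0.9. The genes most like *Pdgfra* were *Kif27* with r 0.983, *Spag6l* with 0.981, *Vat1l* with 0.981, *Fam114a1* with 0.979 and *Ocln* with 0.978, and 94 genes had r over 0.9. The genes most like *Mbp* were *Rgs8* with r 0.987, *Ptpn3* with 0.975, *Pcdh11x* with 0.971, *Gprin2* with 0.968 and *Rasgef1c* with 0.967, and 99 genes had r over 0.9.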
